A study of Rattus norvegicus with 10 samples.

Results

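The 32 genes described here carry cells through DNA replication and division, and were measured in chemically induced rat mammary tumours. They were taken from a list of cell cycle genes and found on the array by the transcript accession of each probe, matched to RefSeq symbols. Of the 32, 12 act mainly before or during S phase and 20 in G2 and mitosis. A probe was matched for 27, and all 27 passed the filter that a probe be well above background on at least 5 of 10 arrays, among 16779 genes tested in all. The 27 are 11 of the S phase genes and 16 of the mitosis genes. Mcm5, Mki67, Top2a, Bub1b and Nusap1 had no probe matched by name and have no value here.

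All 10 tumours came from female Sprague-Dawley rats at 110 days of age, 5 in each of the groups called WD and CD here (negCD in the sample titles). The groups differed in the mother's diet, which was Western-style (rich in fat, poor in fiber and oligoelements) for WD and a control diet for CD, eaten on gestational days 12 to 20 and postnatal days 1 to 21. The later steps that the labels give were shared: every daughter ate control diet from weaning and was given N-methyl-N-nitrosourea (MNU), an alkylating carcinogen, as 1 dose of 50 mg/kg into the peritoneum at 3 weeks. The tumours were of tubular or papillary type. The labels name no dam or litter, so p-values measure the spread between these tumours only. RNA came from whole tumour tissue, in which fewer cycling cells and less RNA per cycling cell cannot be told apart.

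A dividing cell makes these transcripts in waves. E2F factors, freed when cyclin-dependent kinases inactivate the retinoblastoma protein, switch on genes for licensing origins, copying DNA and supplying nucleotides. Later the MYB-MuvB complex and FOXM1, which act at promoters with CHR elements and CCAAT boxes, switch on the cyclins, kinases and motor proteins of mitosis. Resting cells hold both waves low, so the summed level of such genes is widely read as a measure of how much of a tumour is cycling.

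The promoters of 25 of the 32 genes were found in RefSeq's windows of 300 bases, 250 before and 50 after the transcript start on build GRCr8. They were searched on both strands for the CHR element (TTTGAA or TTTAAA), the CCAAT box (CCAAT) and an E2F site (TTTCCCGC, TTTGGCGC, TTTGCCGC or TTTCGCGC). The windows shown belong to the 3 genes of smallest p in each set that have an entry, since the S phase and mitosis sets are compared throughout. Capitals mark the matches to these motifs, and the sequences run 5′ to 3′ on the gene's strand.

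Mcm7, GRCr8 chr12:22163129-22163428, minus strand: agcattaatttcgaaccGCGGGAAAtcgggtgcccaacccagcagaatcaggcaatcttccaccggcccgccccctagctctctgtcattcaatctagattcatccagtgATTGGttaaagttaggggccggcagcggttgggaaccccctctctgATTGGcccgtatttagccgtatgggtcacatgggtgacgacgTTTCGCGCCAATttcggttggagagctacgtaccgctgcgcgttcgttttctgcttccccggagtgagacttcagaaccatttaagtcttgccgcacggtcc
Rrm1, GRCr8 chr1:166235654-166235953, plus strand: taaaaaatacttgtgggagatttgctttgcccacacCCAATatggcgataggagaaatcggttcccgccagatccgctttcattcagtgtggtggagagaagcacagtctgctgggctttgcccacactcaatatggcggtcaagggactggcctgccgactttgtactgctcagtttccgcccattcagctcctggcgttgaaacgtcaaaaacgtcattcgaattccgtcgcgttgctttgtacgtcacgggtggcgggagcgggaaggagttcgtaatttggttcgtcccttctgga
Mcm3, GRCr8 chr9:30733697-30733996, minus strand: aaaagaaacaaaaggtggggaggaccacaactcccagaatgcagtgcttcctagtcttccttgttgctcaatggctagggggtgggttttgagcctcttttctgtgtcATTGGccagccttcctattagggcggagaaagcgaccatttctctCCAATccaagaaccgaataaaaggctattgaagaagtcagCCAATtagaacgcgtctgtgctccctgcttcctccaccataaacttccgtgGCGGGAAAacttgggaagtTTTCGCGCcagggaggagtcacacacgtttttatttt
Aurka, GRCr8 chr3:181560720-181561019, minus strand: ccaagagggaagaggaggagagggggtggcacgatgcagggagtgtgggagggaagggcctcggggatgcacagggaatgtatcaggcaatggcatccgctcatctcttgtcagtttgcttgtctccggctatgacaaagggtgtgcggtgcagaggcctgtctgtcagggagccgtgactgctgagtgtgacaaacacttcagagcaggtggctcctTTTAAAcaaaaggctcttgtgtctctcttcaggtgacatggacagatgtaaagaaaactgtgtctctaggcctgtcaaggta
Ccnb2, GRCr8 chr8:79981609-79981908, minus strand: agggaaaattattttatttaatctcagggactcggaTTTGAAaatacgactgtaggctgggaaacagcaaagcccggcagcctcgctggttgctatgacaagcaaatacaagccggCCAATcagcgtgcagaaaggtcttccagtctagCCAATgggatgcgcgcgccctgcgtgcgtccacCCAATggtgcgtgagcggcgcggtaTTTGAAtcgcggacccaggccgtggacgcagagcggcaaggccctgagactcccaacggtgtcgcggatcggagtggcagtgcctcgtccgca
Kif20a, GRCr8 chr18:26504172-26504471, plus strand: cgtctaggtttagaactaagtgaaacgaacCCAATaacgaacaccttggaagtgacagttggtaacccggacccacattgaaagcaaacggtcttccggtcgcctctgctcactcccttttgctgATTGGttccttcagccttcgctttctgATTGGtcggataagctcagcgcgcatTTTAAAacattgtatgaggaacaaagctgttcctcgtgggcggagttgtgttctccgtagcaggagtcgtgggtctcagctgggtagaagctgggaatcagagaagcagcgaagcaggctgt

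The sets differed in which motifs they held. A CHR element lay in the windows of 16 of 16 mitosis genes and of 2 of 9 S phase genes, and in 28.25% of all 33469 promoters. An E2F site lay in 6 of 9 S phase windows (Mcm2, Mcm3, Mcm5, Mcm6, Mcm7 and Tyms) and in 1 of 16 mitosis windows (Cdk1), and in 2.14% of all promoters. CCAAT boxes were shared by both sets, in 6 of 9 and 13 of 16 windows, and in 37.5% of all promoters. CHR and CCAAT occurred together in 13 of 16 mitosis windows, in 0 of 9 S phase windows and in 11.3% of all promoters.

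Single promoters followed this layout to different degrees. In Ccnb2, the cyclin B2 gene, 3 CCAAT boxes began at positions -134, -101 and -68 from the start, each 33 bases from the next, and a CHR element began at position -43. The Ccnb1 window held CCAAT boxes 32 bases apart and a CHR element that began at position -25. The Mki67 and Top2a windows held 4 CCAAT boxes each, with 2 and 1 CHR elements. The Aurka window held a CHR element that began at position -32 and no match to the other motifs. Whether its annotated start is the one used in these tumours was not tested, so its promoter may lie elsewhere. The Rrm1 window held 1 CCAAT box and no E2F site as spelled here. In Mcm7 the E2F match and the CCAAT match nearest the start shared a base, the only overlap between motifs in the windows shown. TTTAAA reads the same on both strands and was counted as 1 match. A match describes letters in a window, not a bound site. The windows and their counts rest on annotated transcript starts, which were not checked in these tumours.

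**Figure D1:**
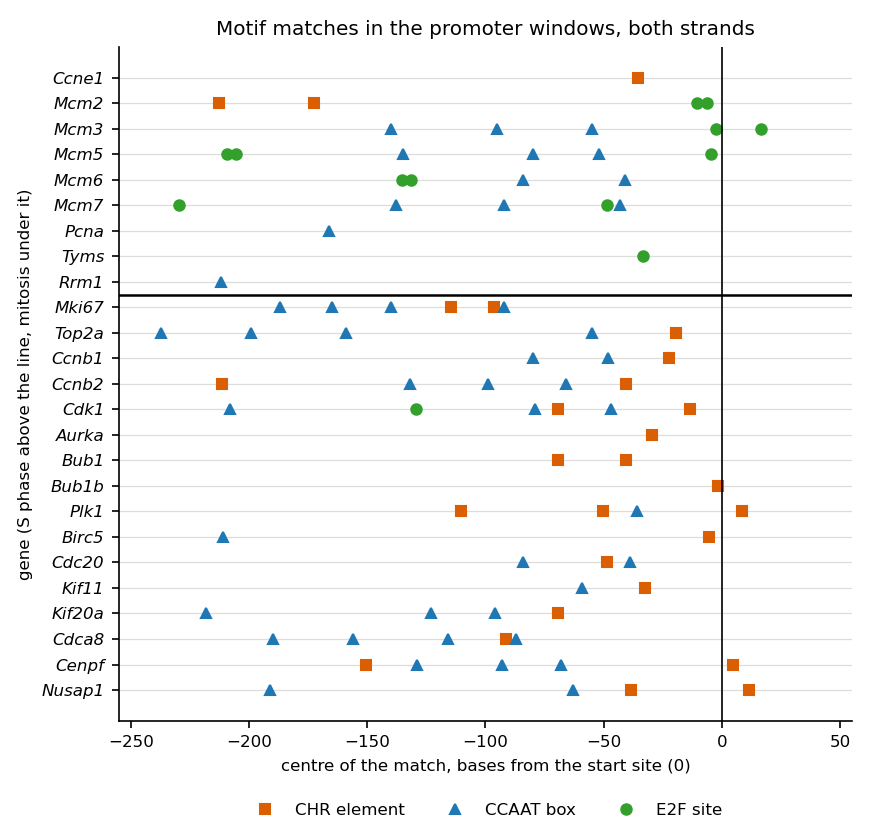
Motif matches in the promoter windows of the 25 genes with an entry, by the distance of the match centre from the transcript start in bases (x axis) and by gene (y axis, S phase genes above the line). Squares mark CHR elements, triangles CCAAT boxes and circles E2F sites: squares stand in all 16 mitosis rows, and circles in 6 of 9 S phase rows and 1 mitosis row.

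Levels are given as log2 of the processed signal minus the 75th percentile of that array, so 0 is the brightness of the probe at that percentile. A level is compared between tumours, not between genes, because probes differ in how brightly they report. The 75th percentile lay between 72.8 and 170 in the Western-style arrays and between 85.0 and 226 in the controls, and 16702 to 21935 probes were well above background. On the log2 scale it was lower by 0.73 in the Western-style arrays (6.67 ± 0.48 against 7.40 ± 0.57, SD, n = 5 each, two-sided exact permutation p = 0.0714, where the smallest possible is 0.00794). Across the 10 tumours brightness had r = 0.36 and rho = 0.37 with the mean of the 27 genes, and r = 0.85 without WD3 and WD2, the arrays farthest from the median brightness. No probe of the set was saturated. The tissue label was checked with 10 luminal epithelial markers, keratins and adhesion genes among them: 9 had a probe, and 7 passed the filter and were well above background on all 10 arrays.

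**Figure D2:**
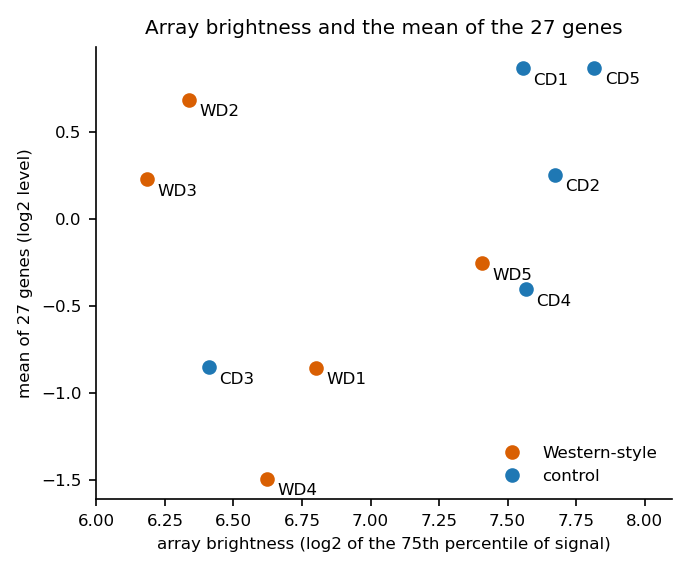
Brightness of each array, as log2 of the 75th percentile of its signal (x axis), and the mean level of the 27 genes in that tumour (y axis, log2). Orange points are Western-style and blue points control tumours: CD3 is the dimmest control array, and the dim arrays WD2 and WD3 have higher means than WD1, WD4 and CD3.

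The 27 genes went up and down together from tumour to tumour. Their mean level was -0.86, 0.68, 0.23, -1.49 and -0.25 in WD1 to WD5 and 0.86, 0.25, -0.85, -0.40 and 0.87 in CD1 to CD5. WD2, CD1 and CD5 were high, WD4, WD1 and CD3 were low, and each diet group held tumours of both kinds. The highest and lowest tumours lay 2.36 apart on the log2 scale, which is 5.14-fold. The size of this spread rested on the processing. The SD within diet groups of the S phase mean was 0.71 with the main processing and 0.32 with normexp background correction. In the authors' deposited values it was 0.34. For the mitosis mean the SD was 0.89, 0.48 and 0.50 in the same order. WD4 had the lowest level of 20 of the 27 genes and was among the 3 lowest tumours for all 27. CD1 was among the 3 highest tumours for all 27, and CD5 for 24.

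A first principal component held 87.0% of the variance of the 27 genes over the 10 tumours, and the next held 4.16%. The median correlation of a pair of genes was 0.86 over 351 pairs, and the lowest was 0.43. Pairs of mitosis genes had a median of 0.90 and pairs of S phase genes 0.78, with 0.85 for pairs across the sets. These points share arrays and array brightness. The residual SD of a gene, its spread between tumours of the same diet, had a median of 0.91 over the 27 genes, 0.66 over the S phase genes and 0.95 over the mitosis genes, beside 0.34 over all genes tested. These medians are given for the main processing only.

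**Figure D3:**
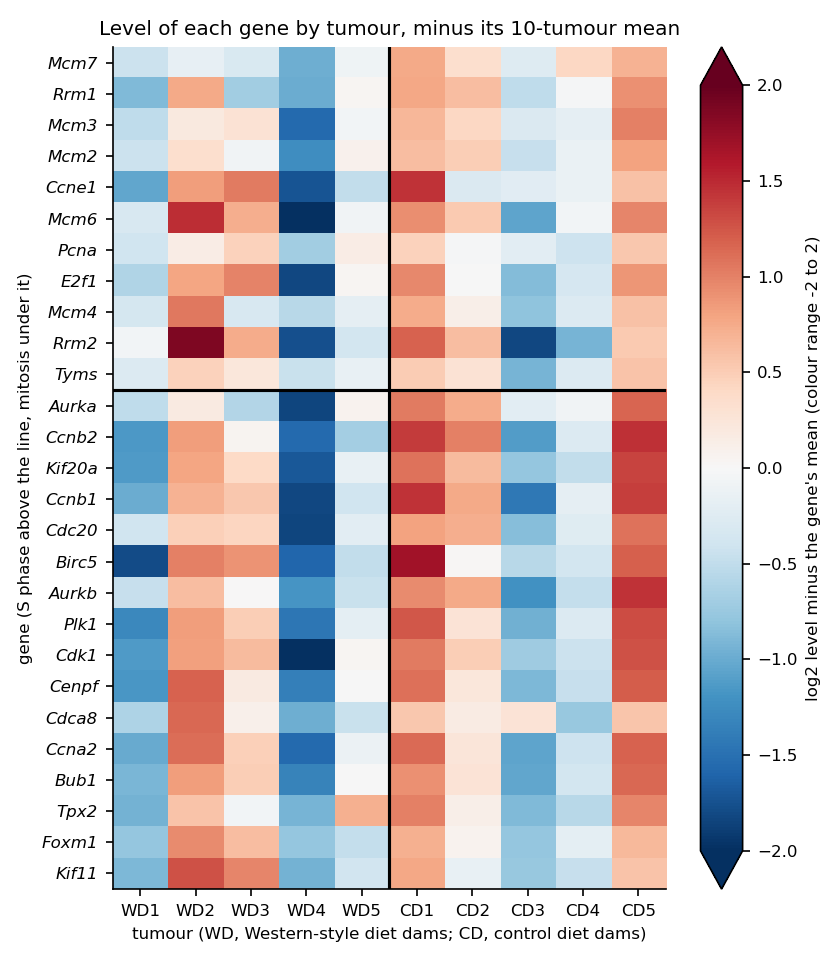
Level of each of the 27 genes (rows, S phase above the line) in each tumour (columns), as log2 level minus that gene's mean over 10 tumours; red is higher, blue is lower, and values past -2 or 2 take the end colour. Whole columns share a colour: WD4, WD1 and CD3 are mostly blue, and CD1, CD5 and WD2 mostly red, in both sets.

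Between the diets no gene of the set passed the test. The adjusted p in limma, over 16779 genes, was 0.185 or more for the 27 genes, and 0% of all genes tested fell under 0.05. At an unadjusted p under 0.05, 2 of the 27 were lower in the Western-style tumours, Mcm7 and Aurka, beside 7.7% of all genes, and 0 were higher, beside 7.81%. The share of the set at that level was thus near the background. The mean was lower in the Western-style group for 25 of 27 genes, beside 48.5% of all genes, and the median difference was -0.53 beside 0.01. Since the genes followed each other across tumours, these 25 are not independent observations. The groups were separate for 0 of the 27, beside 2.3% of all genes that did not overlap with the Western-style group lower. In place of 2, the count of lower genes was 7 without CD3, 4 without WD2, and 1 without CD1 or CD5. It was 1 with normexp background correction, 0 with array brightness in the model and 3 in the authors' deposited table. The sizes of the differences also rested on the processing: of the 27, 23 were more than 1.5 times smaller with normexp, 17 in the authors' deposited table and 17 with brightness in the model.

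**Figure D4:**
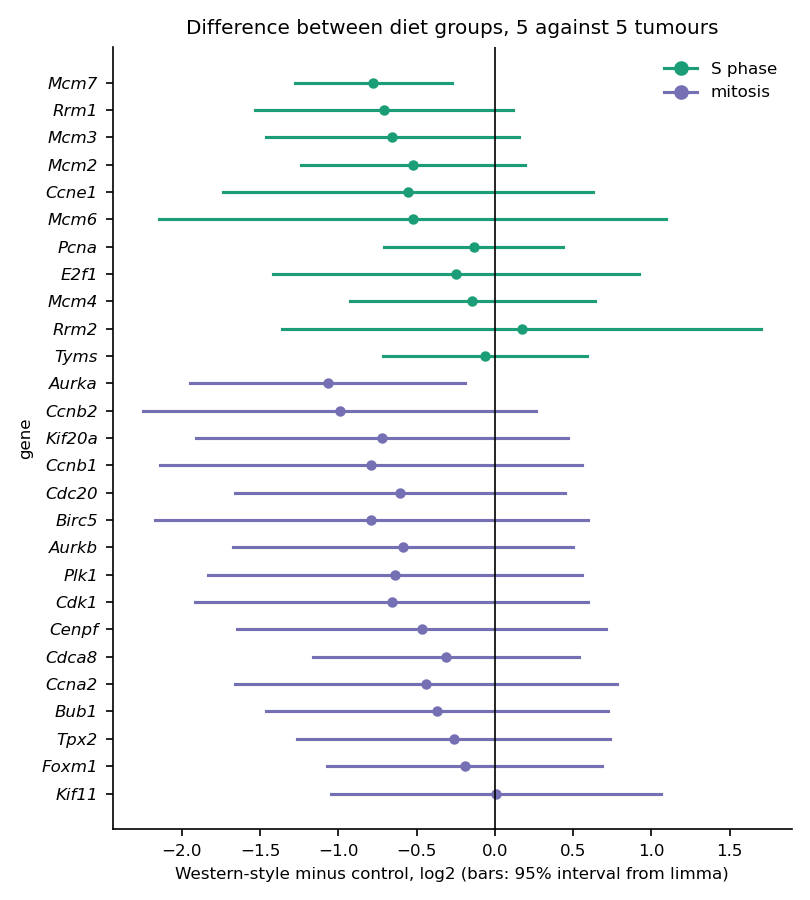
Western-style minus control level of each gene (x axis, log2; points) with its 95% interval from limma (bars), ordered by p within the S phase set (green) and the mitosis set (purple), 5 tumours against 5. Of the 27 points, 25 lie left of 0, and only the bars of Mcm7 and Aurka do not cross it.

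Among the regulators that open S phase, E2f1 encodes the activating transcription factor E2F1 and Ccne1 encodes cyclin E1, the partner of CDK2 at the G1/S border. The level of E2f1 ran from -1.45 to 1.37 in the Western-style tumours and -0.49 to 1.33 in the controls, with a difference of -0.25 (SE 0.53, limma adjusted p = 0.851). For Ccne1 it ran from -0.98 to 1.77 in the Western-style tumours and 0.44 to 2.19 in the controls, with a difference of -0.56 (SE 0.54, limma adjusted p = 0.639). The groups overlapped for both genes, which were lowest in WD4, although WD1, WD4 and WD5 lay below every control for Ccne1. Without WD4 the difference of E2f1 was 0.18.

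The minichromosome maintenance genes Mcm2 to Mcm7 encode the subunits of the helicase that is loaded at origins and unwinds DNA ahead of the fork. Mcm7 had the smallest p of the 27 genes. WD1 to WD5 had levels of 0.14, 0.40, 0.26, -0.41 and 0.49, and CD1 to CD5 of 1.32, 0.90, 0.31, 0.98 and 1.26. The control tumours CD1, CD2, CD4 and CD5 lay above every Western-style tumour, and CD3 lay below WD2 and WD5. The mean was 0.18 ± 0.35 against 0.95 ± 0.40 (SD, n = 5 each), a difference of -0.78 (SE 0.23, 95% interval -1.28 to -0.28), and the adjusted p in limma was 0.185. This is 1.71-fold lower on the linear scale, with 5 of 5 Western-style tumours below the control mean. The difference was -0.63, -0.86 and -0.66 within slides 1, 2 and 3, and -0.46 with array brightness in the model.

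Mcm3, another helicase subunit, had a similar order of tumours. From WD1 to WD5 the levels were 0.17, 0.86, 0.96, -0.88 and 0.62, and from CD1 to CD5 1.34, 1.09, 0.39, 0.49 and 1.69. CD1, CD2 and CD5 lay above every Western-style tumour, while CD3 and CD4 lay within their range. The mean was 0.34 ± 0.75 against 1.00 ± 0.55 (SD, n = 5 each), a difference of -0.66 (SE 0.37, 95% interval -1.46 to 0.15), and the adjusted p in limma was 0.408. A less bright Mcm3 probe gave -0.15, with a correlation of 0.72 to the probe used, and the mean of both -0.40. For Mcm2, the level was -1.10, -0.32, -0.73, -1.90 and -0.58 in WD1 to WD5 and -0.05, -0.18, -1.13, -0.80 and 0.14 in CD1 to CD5. The same 3 control tumours were above every Western-style tumour, and CD3 was below all of them but WD4. The mean was -0.93 ± 0.61 against -0.40 ± 0.54 (SD, n = 5 each), a difference of -0.53 (SE 0.33, 95% interval -1.24 to 0.19), and the adjusted p in limma was 0.451. Its second probe gave -0.76, with a correlation of 0.75.

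The other measured subunits had larger p-values. The level of Mcm6 ran from -3.96 to 0.63 in the Western-style tumours and -1.90 to 0.15 in the controls, a 24.1-fold range over 10 tumours that WD4 set at its low end. The Mcm6 probe was well above background in 4 of 5 Western-style and 5 of 5 control arrays. Its difference was -0.53 (SE 0.74, limma adjusted p = 0.755), and 0.19 without WD4. With normexp background correction it was -0.12, and in the authors' deposited table -0.10. For Mcm4 the level ran from -2.11 to -0.50 in the Western-style tumours and -2.36 to -0.82 in the controls, with a difference of -0.14 (SE 0.36, limma adjusted p = 0.873). The Mcm4 probe was well above background in 3 of 5 Western-style and 4 of 5 control arrays. In WD2 Mcm4 stood at -0.50, well above the other Western-style tumours. Mcm2, Mcm3, Mcm4, Mcm6 and Mcm7 all had a lower mean in the Western-style group, and none passed the test over all genes.

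Pcna encodes the sliding clamp that holds DNA polymerases on the template. WD1 to WD5 had levels of 2.18, 2.72, 3.04, 1.89 and 2.73, and CD1 to CD5 of 3.04, 2.55, 2.36, 2.17 and 3.11. WD4 and CD4 were the low ends of their groups, and the groups overlapped over most of their range. The mean was 2.51 ± 0.47 against 2.65 ± 0.42 (SD, n = 5 each), a difference of -0.14 (SE 0.26, 95% interval -0.71 to 0.43), and the adjusted p in limma was 0.827. A less bright Pcna probe gave a difference of -0.59, with a correlation of 0.68 to the probe used.

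Rrm1 and Rrm2 encode the large and small subunits of ribonucleotide reductase, which makes deoxyribonucleotides, and Tyms encodes thymidylate synthase. For Rrm1, from WD1 to WD5 the levels were -1.49, 0.15, -1.30, -1.60 and -0.57, and from CD1 to CD5 0.17, 0.01, -1.11, -0.64 and 0.30. WD2 stood among the high controls CD1, CD2 and CD5, and CD3 and CD4 lay among the other Western-style tumours. The mean was -0.96 ± 0.74 against -0.25 ± 0.60 (SD, n = 5 each), a difference of -0.71 (SE 0.38, 95% interval -1.53 to 0.12), and the adjusted p in limma was 0.384. Of 2 further Rrm1 probes, 1 gave -0.21 and 1 gave 0.28, so the probes of this gene disagreed in direction.

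The small subunit gene Rrm2 was the only measured S phase gene with a higher mean in the Western-style group. Its level ran from -3.45 to 0.18 in the Western-style tumours and -3.51 to -0.51 in the controls, with a difference of 0.17 (SE 0.70, limma adjusted p = 0.929), and its second probe gave -0.51. The sign of Rrm2 turned under 4 of the other processing settings and when WD2, CD3 or CD4 was left out. For Tyms, the level was -1.48, -0.74, -0.99, -1.65 and -1.35 in WD1 to WD5 and -0.71, -0.93, -2.14, -1.48 and -0.64 in CD1 to CD5. CD3 was the lowest tumour and CD5 and CD1 the highest, so the controls spanned the whole Western-style range. Tyms had the largest p of the S phase genes. The mean was -1.24 ± 0.37 against -1.18 ± 0.63 (SD, n = 5 each), a difference of -0.06 (SE 0.30, 95% interval -0.71 to 0.59), and the adjusted p in limma was 0.935.

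In mitosis, Cdk1 encodes the kinase that drives entry and Ccnb1, Ccnb2 and Ccna2 its cyclin partners. For Ccnb2, WD1 to WD5 had levels of -1.71, 0.28, -0.50, -2.12 and -1.24, and CD1 to CD5 of 0.84, 0.44, -1.68, -0.83 and 0.90. CD1, CD2 and CD5 lay above every Western-style tumour, and CD3 lay with WD1 and WD4 at the low end. The mean was -1.06 ± 0.96 against -0.07 ± 1.14 (SD, n = 5 each), a difference of -0.99 (SE 0.57, 95% interval -2.25 to 0.26), and the adjusted p in limma was 0.417.

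Ccnb1, the cyclin B1 gene, ordered the tumours alike. From WD1 to WD5 the levels were -1.26, 0.42, 0.27, -2.10 and -0.66, and from CD1 to CD5 1.18, 0.49, -1.71, -0.44 and 1.11. The same 3 controls stood above every Western-style tumour, and CD3 and WD4 were the lowest of their groups. The mean was -0.67 ± 1.05 against 0.12 ± 1.21 (SD, n = 5 each), a difference of -0.79 (SE 0.61, 95% interval -2.14 to 0.55), and the adjusted p in limma was 0.550. Cdk1 ran from 1.11 to 3.94 in the Western-style tumours and 2.40 to 4.38 in the controls, with a difference of -0.66 (SE 0.57, limma adjusted p = 0.595). Ccna2, cyclin A2, ran from -0.95 to 1.72 in the Western-style tumours and -0.45 to 1.79 in the controls, with a difference of -0.44 (SE 0.56, limma adjusted p = 0.729). The groups overlapped for both. Of all 27 genes Ccna2 had the highest correlation with the mean of the other genes, at 0.99.

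Of the mitotic kinase genes, Aurka encodes Aurora A, which matures centrosomes and builds the spindle. Its level was -2.12, -1.43, -2.19, -3.43 and -1.53 in WD1 to WD5 and -0.56, -0.86, -1.81, -1.68 and -0.44 in CD1 to CD5. CD1, CD2 and CD5 lay above every Western-style tumour, CD3 and CD4 lay below WD2 and WD5, and WD4 was lowest of all. The mean was -2.14 ± 0.80 against -1.07 ± 0.64 (SD, n = 5 each), a difference of -1.07 (SE 0.40, 95% interval -1.95 to -0.19), and the adjusted p in limma was 0.253. This is 2.10-fold lower, and the probe was well above background in 3 of 5 Western-style and 5 of 5 control arrays. Within slides 1, 2 and 3 the difference was -0.91, -1.69 and -0.41, and it was -0.62 with brightness in the model, -0.24 with normexp background correction and -0.32 in the authors' deposited table.

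Aurkb encodes Aurora B, the kinase of the chromosomal passenger complex that corrects kinetochore attachments. Its level ran from -3.08 to -1.29 in the Western-style tumours and -3.11 to -0.46 in the controls, with a difference of -0.59 (SE 0.49, limma adjusted p = 0.585). The Aurkb probe was well above background in 3 of 5 Western-style and 4 of 5 control arrays. Plk1, polo-like kinase 1, ran from 0.54 to 2.82 in the Western-style tumours and 1.03 to 3.29 in the controls, with a difference of -0.64 (SE 0.54, limma adjusted p = 0.588), and its second probe gave -0.81 with a correlation of 0.97 between the probes. Bub1, a spindle checkpoint kinase, ran from -0.79 to 1.37 in the Western-style tumours and -0.50 to 1.69 in the controls, with a difference of -0.37 (SE 0.50, limma adjusted p = 0.743). With brightness in the model the differences were -0.075 for Aurkb, -0.32 for Plk1 and -0.01 for Bub1. All of these kinases were lowest in WD4 except Aurkb, which was lowest in CD3.

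Among the motors and other spindle proteins, Kif20a encodes a kinesin of the central spindle, needed for cytokinesis. WD1 to WD5 had levels of -0.01, 1.91, 1.52, -0.58 and 0.97, and CD1 to CD5 of 2.20, 1.76, 0.34, 0.64 and 2.47. CD1 and CD5 were above every Western-style tumour, WD2 and WD3 lay with CD2, and WD1 and WD4 were lowest. The mean was 0.76 ± 1.04 against 1.48 ± 0.95 (SD, n = 5 each), a difference of -0.72 (SE 0.54, 95% interval -1.91 to 0.47), and the adjusted p in limma was 0.533. Kif11 encodes Eg5, the motor that pushes spindle poles apart, and had the largest p of the mitosis genes. From WD1 to WD5 the levels were -2.72, -0.54, -0.84, -2.76 and -2.20, and from CD1 to CD5 -1.05, -1.96, -2.58, -2.27 and -1.24. WD2 and WD3 were the highest of all 10 tumours and WD4 and WD1 the lowest, so the controls lay inside the Western-style range. The mean was -1.81 ± 1.05 against -1.82 ± 0.66 (SD, n = 5 each), a difference of 0.01 (SE 0.48, 95% interval -1.05 to 1.06), and the adjusted p in limma was 0.994. The Kif11 probe was well above background in 3 of 5 Western-style and 4 of 5 control arrays.

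Tpx2, which activates Aurora A on the spindle, ran from -1.93 to -0.27 in the Western-style tumours and -1.87 to 0.03 in the controls, with a difference of -0.26 (SE 0.45, limma adjusted p = 0.802) that became 0.29 with brightness in the model. Cenpf, a kinetochore protein, ran from -2.59 to -0.04 in the Western-style tumours and -2.12 to -0.02 in the controls, with a difference of -0.47 (SE 0.54, limma adjusted p = 0.698). These profiles overlapped between the groups. For Cdca8, which encodes borealin of the passenger complex, the level ran from -3.17 to -1.04 in the Western-style tumours and -2.94 to -1.63 in the controls, with a difference of -0.31 (SE 0.39, limma adjusted p = 0.721). The Cdca8 probe was well above background in only 2 of 5 Western-style and 4 of 5 control arrays. Its difference was -0.09 with normexp and -0.59 with brightness in the model. Birc5 encodes survivin, a further passenger subunit, and ran from -0.92 to 1.88 in the Western-style tumours and 0.33 to 2.55 in the controls, with a difference of -0.79 (SE 0.63, limma adjusted p = 0.564).

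Cdc20, which activates the anaphase-promoting complex, and Foxm1, the transcription factor of the mitotic wave, complete the set. The level of Cdc20 ran from -1.18 to 1.14 in the Western-style tumours and -0.20 to 1.75 in the controls, with a difference of -0.61 (SE 0.48, limma adjusted p = 0.561). For Foxm1 it ran from -0.11 to 1.61 in the Western-style tumours and -0.11 to 1.39 in the controls, with a difference of -0.19 (SE 0.40, limma adjusted p = 0.845), the smallest among the mitosis genes after Kif11. Neither separated the diets, and Foxm1 was highest in WD2.

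The S phase and mitosis sets were then compared. The mean of the 11 S phase genes was -0.63, 0.56, 0.13, -1.50 and -0.25 in WD1 to WD5 and 0.67, 0.13, -0.82, -0.36 and 0.59 in CD1 to CD5. The mean of the 16 mitosis genes was -1.01, 0.77, 0.29, -1.49 and -0.26 and 0.99, 0.34, -0.87, -0.44 and 1.06 in the same order. Both placed WD4 lowest and CD1, CD5 and WD2 highest, and their correlation over 10 tumours was 0.98 (rho = 0.98), and 0.99 without WD4 and CD3. From the lowest to the highest tumour the S phase mean spanned 2.17 and the mitosis mean 2.55 on the log2 scale with the main processing.

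Between the diets the S phase mean was -0.34 ± 0.78 in the Western-style group and 0.04 ± 0.63 in the controls (SD, n = 5 each), a difference of -0.38. The mitosis mean was -0.34 ± 0.92 and 0.22 ± 0.86, a difference of -0.56. Each difference was smaller than the spread between tumours of a group, and 3 of 5 Western-style tumours were below the control mean for both. Both rested on few tumours. Without WD4 the differences were -0.09 for S phase and -0.27 for mitosis, without CD1 -0.22 and -0.36, and without CD5 -0.24 and -0.35. Without CD3 they were -0.60 and -0.83, and without WD2 -0.60 and -0.83. With brightness in the model they were -0.14 and -0.28, with normexp background correction -0.16 and -0.26, and in the authors' deposited value table -0.22 and -0.34.

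The S phase mean minus the mitosis mean shows how far the sets parted within a tumour, and only its differences between tumours can be read, since the probes differ. It was 0.38, -0.22, -0.16, -0.01 and 0.01 in WD1 to WD5 and -0.32, -0.20, 0.05, 0.08 and -0.47 in CD1 to CD5. The group means were 0.00 ± 0.23 and -0.18 ± 0.24 (SD, n = 5 each), a gap of 0.18 that is smaller than the SD of either group, with ranges that overlapped. CD5 and CD1, the tumours with the highest means, had the lowest values, and WD1 the highest. The gap ran from 0.08 to 0.24 when each tumour was left out in turn.

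**Figure D5:**
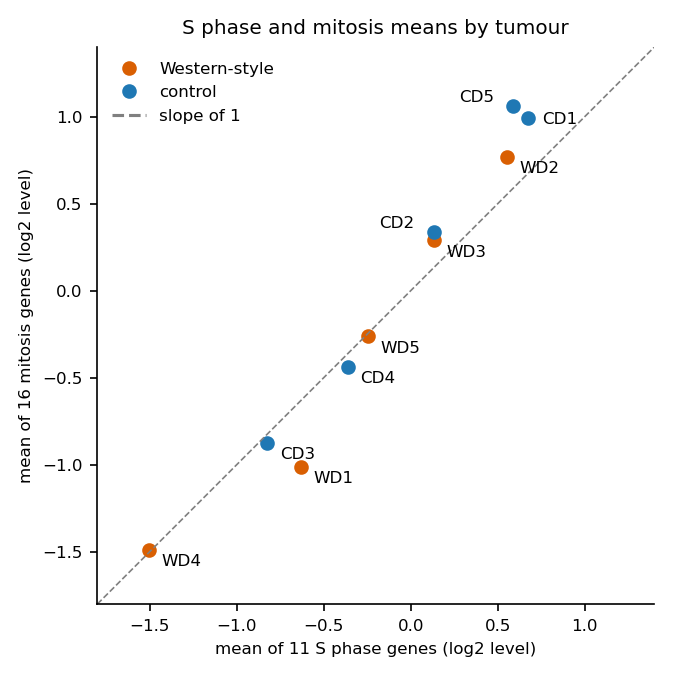
Mean log2 level of the 11 S phase genes (x axis) and of the 16 mitosis genes (y axis) in each tumour, Western-style in orange and control in blue; the dashed line has a slope of 1, and a tumour's side of it has no meaning because probes differ in brightness. The 10 tumours lie along 1 band from WD4 to CD1 and CD5, with the diets mixed along it.

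The arrays were hybridised on 3 slides, scanned as 3 scans, holding 2 Western-style and 1 control, 2 and 2, and 1 and 2 arrays. Within slides 1, 2 and 3 the difference of the S phase mean was -0.17, -0.57 and -0.40, and of the mitosis mean -0.46, -0.69 and -0.54. Both means were thus lower on each slide, where 1 or 2 tumours stand for a group. On slide 1 the Western-style mean was lower for 19 of 27 genes, on slide 2 for 24 and on slide 3 for 25. It was lower on all 3 slides for 12 of 16 mitosis genes and 4 of 11 S phase genes, the latter being Mcm2, Mcm3, Mcm7 and Rrm1. Such counts were not made over all genes, and the 27 genes followed each other across tumours.

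Other genes of the pathway were read from 11 lists of 155 genes, of which 126 had a probe and 101 passed the filter. None of the 101 passed the test over all genes. At an unadjusted p under 0.05, 8 of 101 were lower in the Western-style tumours, beside 7.7% of all genes, and 0 were higher. The mean was lower for 79 of 101, beside 48.5%, with a median difference of -0.18. In the lists that act in mitosis nearly all means were lower: 11 of 11 genes of the spindle checkpoint and anaphase (median -0.32), 8 of 8 of the kinetochore and centromere (-0.52), 9 of 10 of the spindle motors and cytokinesis (-0.56) and 6 of 6 of mitotic entry (-0.47). The replication fork list had 15 of 15 lower, with a median of -0.15. Origin licensing had 5 of 10 lower (median 0.01), G1 cyclins and kinases 5 of 8 (-0.05), CDK inhibitors and pocket proteins 5 of 9 (-0.05), and E2F and DREAM factors 3 of 7 (0.15). Nucleotide supply had 6 of 9 lower (-0.30), and cohesin and condensin 6 of 8 (-0.13). In the mitotic lists, correlations with the mean of the measured S phase and mitosis genes ran from -0.68 (Zwint) to 0.99 (Ttk). Many were high, such as those of Cks2 (0.99) and Cenpt (0.98), while Bub3 had -0.08. Genes that followed that mean are not independent observations. The list counts are given for the main processing with all tumours only.

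In 4 of the 101 genes the groups did not overlap, with the Western-style tumours lower, beside 2.3% of all genes. Cdk4, the kinase partner of D cyclins, was at 2.63, 2.31, 2.34, 2.33 and 2.69 in WD1 to WD5 and 3.11, 3.20, 2.76, 3.17 and 2.85 in CD1 to CD5. Every Western-style tumour was lower than every control, by 0.56 on average (SE 0.15, limma adjusted p = 0.181). Its correlation with the mean of the 27 genes was 0.27. Rad21, a cohesin subunit that holds sister chromatids together, was at 1.15, 1.19, 1.39, 0.96 and 1.09 and 1.80, 1.73, 1.63, 1.61 and 1.75 in the same order. Again no tumours overlapped, and the mean was lower by 0.55 (SE 0.13, limma adjusted p = 0.181), with a correlation of 0.57 to the 27 genes. With the kept Rad21 probes averaged the difference was -0.32. Lin37, a subunit of the MuvB core, ran from -0.36 to 0.21 in the Western-style tumours and 0.37 to 0.67 in the controls, and Anapc5, a subunit of the anaphase-promoting complex, from 3.77 to 4.20 in the Western-style tumours and 4.23 to 4.69 in the controls. Their differences were -0.47 (SE 0.14, limma adjusted p = 0.193) and -0.35 (SE 0.15, limma adjusted p = 0.284). Their correlations with the 27 genes were 0.01 and 0.79.

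The remaining genes of smallest p on each list had overlapping groups. Cdkn2c, an inhibitor of CDK4 and CDK6, ran from -1.62 to -0.12 in the Western-style tumours and -0.94 to 1.42 in the controls, with a difference of -1.13 (limma adjusted p = 0.261), and Cdc25b, a phosphatase that activates CDK1, had -1.11 (adjusted p = 0.278). The Cdc25b probe was well above background in 2 of 5 Western-style and 4 of 5 control arrays, and its difference was -0.13 with normexp and -0.23 in the authors' deposited table. Ctps1, which makes CTP, had -0.51 (adjusted p = 0.271), Rfc2 of the clamp loader -0.49 (adjusted p = 0.327) and Kif2c, a microtubule depolymerase, -0.96 (adjusted p = 0.359), again in limma. Kif2c was well above background in 3 of 5 Western-style and 5 of 5 control arrays, and had -0.25 with normexp and -0.28 in the authors' deposited table. Incenp, the scaffold of the passenger complex, had -0.66 (adjusted p = 0.450) and Gmnn, the licensing inhibitor geminin, -0.36 (adjusted p = 0.631). With brightness in the model Cdkn2c had -0.51 and Incenp -0.19. With normexp Cdkn2c had -0.64 and Gmnn -0.07. In the other direction, Cdkn2a, which encodes the tumour suppressor p16, ran from 0.73 to 3.08 in the Western-style tumours and -0.90 to 2.07 in the controls, with a difference of 1.10 (limma adjusted p = 0.390). Smc2 of condensin had 0.65 (adjusted p = 0.329), Orc2 of the origin recognition complex 0.38 (adjusted p = 0.509), Ccnd2, cyclin D2, 0.36 (adjusted p = 0.585), E2f6, a repressor E2F, 0.21 (adjusted p = 0.652), Kif15, a spindle kinesin, 0.20 (adjusted p = 0.809) and Cad, of pyrimidine synthesis, 0.04 (adjusted p = 0.934). Smc2 was well above background in 3 of 5 Western-style and 5 of 5 control arrays. Its difference was 0.30 with normexp, 0.25 in the authors' deposited table and 0.31 with brightness in the model. Orc2 had 0.012 with its kept probes averaged and 0.021 with brightness in the model. None of these passed the test over all genes.

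Genes outside these lists were ranked by their correlation with the mean of the 27 genes over 10 tumours, after each diet group's mean was removed. Of 8108 such genes with a symbol, the most alike were Rad51ap1 (0.99), Spag5 (0.99), Exo1 (0.99), Ska1 (0.98), Dlgap5 (0.98) and Knstrn (0.97). Spag5, Ska1, Dlgap5 and Knstrn encode spindle and kinetochore proteins, and Rad51ap1 and Exo1 proteins of homologous recombination and strand resection. The least alike were Rtn4rl1 (-0.95), Slc4a4 (-0.95), Ghrh (-0.94), Penk (-0.94), Id3 (-0.93) and Col8a1 (-0.92). Id3 encodes an inhibitor of helix-loop-helix factors and Col8a1 a short-chain collagen. Id3 ran from 0.04 to 2.27 in the Western-style tumours and -0.52 to 1.74 in the controls, and was highest in WD4 and WD1. With normexp background correction the likeness of Rad51ap1 was 0.74, of Knstrn 0.81, of Slc4a4 -0.52 and of Ghrh -0.64. In the authors' deposited table these were 0.88, 0.84, -0.84 and -0.81 in the same order.

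Markers of other cell types were read in the same tumours. Over all genes tested, the mean was higher in the Western-style group for 8633 of 16779. How far markers of 1 cell type followed each other was not tested, so their counts are not read as independent observations. Of the macrophage markers, 9 of 9 measured had a higher mean in the Western-style group, and the summed level of the 9 measured of 10 listed markers ran from 70.9 to 326 in the Western-style group and from 88.9 to 174 in the controls, in multiples of the array's 75th percentile. The mean of these markers had r = -0.70 and rho = -0.65 with the mean of the 27 genes, and r = -0.45 without WD2 and WD4. For T and NK cells 5 of 5 were higher, and the summed level of the 5 measured of 10 listed markers ran from 11.4 to 36.4 in the Western-style group and from 8.20 to 15.3 in the controls, with r = -0.49 (rho = -0.65, r = -0.62 without WD3 and WD4). For fibroblasts and matrix 9 of 9 were higher, and the summed level of the 9 measured of 10 listed markers ran from 73.2 to 256 in the Western-style group and from 60.0 to 165 in the controls, with r = -0.33 (rho = -0.41, r = -0.40 without CD4 and CD1).

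Of the luminal epithelial markers 5 of 7 had a lower mean, and the summed level of the 7 measured of 10 listed markers ran from 457 to 712 in the Western-style group and from 501 to 652 in the controls, with r = 0.51 (rho = 0.60, r = -0.03 without WD1 and WD4). For basal epithelium 3 of 5 were lower, and the summed level of the 5 measured of 8 listed markers ran from 32.6 to 67.0 in the Western-style group and from 37.3 to 65.0 in the controls, with r = 0.20 (rho = 0.26, r = 0.42 without WD5 and CD4). For endothelium 2 of 2 were higher, and the summed level of the 2 measured of 6 listed markers ran from 3.61 to 6.21 in the Western-style group and from 2.65 to 4.56 in the controls, with r = -0.33 (rho = -0.21, r = -0.28 without CD1 and WD3). Of 6 adipocyte markers 1 passed the filter, with r = -0.09 (rho = -0.15, r = -0.62 without WD2 and WD3), and of 6 B and plasma cell markers 0 did. The part of these cell types in the differences of the 27 genes was not tested.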

How the data were processed

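Total RNA (200 ng per tumour, Cy3) was hybridised to Agilent whole rat genome arrays, 1 per tumour. The deposited scanner files hold intensity values per spot (processed signal) and the authors' marks for spots well above background or saturated, made with Agilent Feature Extraction 11.5.1.1 per the file headers (15.5 in the submitters' processing notes). A deposited table of log2 values from the authors follows the median signal rank for rank on all 10 arrays, with medians of 6.97 to 6.98; how its background was treated is unknown, and it served as an alternative.

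Control spots were left out, and log2 processed signal was centred on each array's 75th percentile. Spots of a probe were averaged, without those marked as outliers in the scanner files. Of 41012 probes, 19742 were kept. These were well above background on at least 5 of 10 arrays and had a spot not marked as an outlier on every array. Of the 41012, 17502 had a symbol through RefSeq (unnamed probes were tested by accession). The brightest probe stood for a gene. limma 3.58.1 (R 4.3.3, lmFit and eBayes, Benjamini-Hochberg adjustment, threshold 0.05) compared the groups. The fit was also run on simulated data with independent noise for each gene. The genes of this set are correlated, so no conclusion is drawn from that run. Promoter windows and motifs were read in Python.

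The members and lists were chosen with earlier results of these data known. Genes given in every tumour were Pcna and, in each set, the 4 of smallest p and the 1 of largest p; on each other list the gene of smallest p in each direction was named, with 6 most and 6 least alike genes. Cdk4 and Rad21 were also given in every tumour, chosen after their values were seen because their groups did not overlap. The main fit did not pair tumours by replicate number. Deviations of same-numbered tumours were correlated at -0.02 to 0.16, which does not show whether they share a litter. Alternatives were normexp (on the median signal in place of the mean signal; offset 50), quantile normalization, another percentile, other filters, averaged probes, slide, replicate number or brightness as covariates, the authors' table, and leaving out each tumour.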

Additional observations from a re-analysis of the deposited data

Results flagged for a closer look

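Of 62 groups of 5 tumours looked at, Dixon's criterion marked 2 values that lie far from the rest of their group, and chance marks about 1 group in 20. Mcm4 stood at -0.50 in WD2, with the next Western-style tumour at -1.74 and the lowest at -2.11. The log2 brightness of the CD3 array was 6.41, with the other controls between 7.56 and 7.82. CD3 also had the lowest mean of the 27 genes among the controls, -0.85.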

How the results depend on the processing

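No setting brought a gene of the set past the threshold, and 0 of all genes passed it under any. The 2 genes lower at an unadjusted p under 0.05 became 1 with normexp, 1 when probes had to be above background on all 10 arrays and 0 with brightness as a covariate. They became 3 in the authors' deposited table, where Cdca8 (-0.25) was also lower at that level. Leaving out each tumour gave from 1 to 7. The all-array filter left 15 genes, all 15 with a lower mean, and Aurka was not among them. Over all genes, 2603 at that level in the main setting became 493 with normexp (146 lower), 7050 with no filter (1055 lower, with a median of all genes of 0.34) and 960 with brightness (496 lower), beside 1292 lower in the main setting. Small differences turned sign: Tyms 0.0014 and Rrm2 -0.034 with normexp, Kif11 -0.057 with quantile normalization, Rrm2 -0.11 and E2f6 -0.0013 in the authors' table, Rrm2 -0.17 and Cad -0.10 with probes averaged, and Rrm2 -0.00021 and Kif11 -0.013 with slide as a block. With brightness, Mcm4 was 0.12, Tyms 0.23, Kif11 -0.076 and Tpx2 0.29. Leaving out each tumour gave ranges across 0 for Rrm2 (-0.28 to 0.63), Kif11 (-0.31 to 0.25), E2f1 (-0.53 to 0.18), Mcm6 (-0.96 to 0.19), Pcna (-0.27 to 0.019), Tyms (-0.30 to 0.072), Mcm4 (-0.43 to 0.021), Cad (-0.066 to 0.11) and Kif15 (-0.011 to 0.39). The cause of these changes was not tested. With the replicate number as a replicate block, 2681 genes had an unadjusted p under 0.05, 3 genes of the set were lower at that level, and 0 genes passed the threshold. Same-numbered tumours had deviations correlated at -0.02, 0.07, 0.16, 0.02 and 0.06. Differently numbered tumours were not compared, so these values cannot tell whether same-numbered tumours share more than a number. With 5 tumours a group the number of arrays, and signal near background for probes such as Aurka, Cdca8 and Kif11, limit the precision.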
